A study of Sus scrofa with 12 samples.

Results

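The genes described here are 10 markers of adipocytes measured in the longissimus dorsi (LD), the loin muscle, of 12 Iberian pigs. They were chosen by symbol, as adipocyte hormones, lipid droplet proteins, lipases and adipogenic transcription factors, and each row of the gene tables whose Ensembl identifier carried one of these symbols was taken. All 10 symbols had a row among the 25880 genes listed, and all 10 were among the 13373 genes with enough counts to be tested. The pigs were castrated males from a closed commercial population, fattened outdoors on acorns and grass, and 1 library was sequenced from each. The 6 pigs of the High MB group and the 6 of the Low MB group were taken from the extremes of the breeding value for muscle myoglobin, which ran from 0.159 to 0.206 and from -0.248 to -0.149 respectively. The model behind that value had intramuscular fat percentage, slaughter age and loin weight as covariates. The percentage of fat in the individual loins was not analysed here. The labels name no agent or introduced allele in either group, and the pigs of both were of the same approximate slaughter age.

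Adipocytes lie between the fibres of pig muscle as marbling fat, which is abundant in the Iberian breed. Their development is driven by the nuclear receptor PPARG and by CEBPA, which maintain each other's expression and switch on the genes of fat storage. The mature cell keeps triglyceride in a droplet coated by perilipins, releases fatty acids from it through the lipases PNPLA2 and LIPE, and secretes the hormones adiponectin and leptin. Muscle fibres hold small droplets of their own and also use these lipases and some of the coat proteins.

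Gene counts summed to between 38914271 and 91318334 per pig, with 5 deep libraries (over 50000000 counts, 2 High MB and 3 Low MB) and 7 standard libraries (4 High MB and 3 Low MB). The tissue label was checked with its defining genes: ACTA1, the actin of skeletal muscle, had a mean of 44113 CPM (counts scaled to library size with TMM factors), and 4 of the 10 fibre markers listed had a row under their symbol. No pair of libraries was identical. High MB pig 2 and Low MB pig 4 clustered apart from the rest in an earlier analysis of these counts, and the counts of members are therefore also given without them. In whole muscle, fewer adipocytes and less RNA per adipocyte cannot be told apart.

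The level of the lipase PNPLA2 was not called as correlated with that of the adipocyte hormone ADIPOQ (values given further on). The regions just before the transcription start are shown for PNPLA2 and for the pair of transcription factors that drive adipocyte development. Each is the 250 bases before a RefSeq start in Sscrofa11.1, 5′ to 3′ on the strand of the gene, and no exon overlapped any of them. Capitals mark the match to a searched motif. PPARG lies at chr13:68363581-68363830 (plus strand, inside the annotated gene, before the start of a shorter transcript), CEBPA at chr6:43085885-43086134 (minus strand) and PNPLA2 at chr2:512815-513064 (plus strand).
PPARG: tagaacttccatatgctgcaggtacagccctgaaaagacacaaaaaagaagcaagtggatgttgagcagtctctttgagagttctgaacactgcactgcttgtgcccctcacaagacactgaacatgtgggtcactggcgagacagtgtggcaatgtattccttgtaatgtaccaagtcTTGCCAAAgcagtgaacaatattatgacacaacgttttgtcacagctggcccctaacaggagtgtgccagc
CEBPA: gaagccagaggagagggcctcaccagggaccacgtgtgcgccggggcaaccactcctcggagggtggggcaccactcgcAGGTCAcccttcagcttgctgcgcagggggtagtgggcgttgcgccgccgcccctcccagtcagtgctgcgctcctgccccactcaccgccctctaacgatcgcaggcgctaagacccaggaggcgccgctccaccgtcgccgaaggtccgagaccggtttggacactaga
PNPLA2: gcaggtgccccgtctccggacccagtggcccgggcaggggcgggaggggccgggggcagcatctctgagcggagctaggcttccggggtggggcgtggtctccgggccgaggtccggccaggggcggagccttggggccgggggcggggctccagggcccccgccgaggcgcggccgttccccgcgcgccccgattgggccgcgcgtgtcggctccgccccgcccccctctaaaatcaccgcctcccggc

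Both strands of such windows of 9 members were searched for AGGTCA, the core element of nuclear receptors, and for TTNNGCAA, a core of C/EBP sites, which do not overlap each other. The ADIPOQ record is partial, so its window may not lie at the true start. AGGTCA was found in the CEBPA window alone among these, 171 bases before the start, and in 12.3% of the 19559 windows of all genes. TTNNGCAA was found in the PPARG window alone, on the minus strand 71 bases before the start, and in 8.15% of all windows. The PPARG window had 46.8% G and C, the CEBPA window 68.8% and the PNPLA2 window 80%.

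Levels were compared between genes only after division by the length of all exons annotated in RefSeq, in CPM per kilobase. The counts were by Ensembl gene, so these lengths may differ from those of the exons counted. PNPLA2, the enzyme of the initial step of triglyceride breakdown, had the highest mean over the 12 pigs with 84.0 ± 26.8 (SD, n = 12), followed by the fatty acid carrier FABP4 with 76.8 ± 41.3. These neighbours did not differ beyond their spread, since PNPLA2 was above FABP4 in 5 of the 12 pigs. PLIN4 had 47.1 ± 8.65 and ADIPOQ 41.3 ± 29.4 CPM per kilobase, and PLIN4 was above ADIPOQ in 7 pigs. The ADIPOQ record is partial in the annotation, so its length and its place in this order are uncertain. LIPE followed with 21.3 ± 9.73 and PLIN1 with 8.47 ± 6.42 CPM per kilobase. CIDEC was at 3.24 ± 1.80, CEBPA at 1.46 ± 0.767, PPARG at 0.758 ± 0.377 and LEP at 0.441 ± 0.333 CPM per kilobase. Among the last 5 of the order, each gene was above the next in 11 or 12 of the 12 pigs. The order of the upper 4 depended on the group. FABP4 stood first in the High MB pigs, with 102 ± 40 against 86.5 ± 26.4 CPM per kilobase for PNPLA2 (SD, n = 6), and PNPLA2 stood first in the Low MB pigs, with 81.5 ± 29.4 against 51.2 ± 23.8. ADIPOQ was above PLIN4 in mean in the High MB pigs (53.1 and 48.6) and below it in the Low MB pigs (29.5 and 45.7), and the other 6 genes kept their places.

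ADIPOQ (ENSSSCG00000039103, chr13:124633906-124646237) encodes adiponectin, a hormone made almost exclusively by adipocytes. Its level was between 10.9 and 86.7 CPM in the High MB pigs, with a median of 47.7, and between 6.00 and 79.0 CPM in the Low MB pigs, with a median of 19.2. The groups overlapped along most of this range: High MB pig 5 lay with the low pigs, and Low MB pig 5 was above 5 of the 6 High MB pigs. The log2 fold change of High MB against Low MB was 0.85 (standard error 0.57, 95% interval -0.38 to 2.08), with an adjusted p of 0.69 in edgeR's quasi-likelihood test with Benjamini-Hochberg adjustment over all genes, and an exact permutation p of 0.141. It was 1.65 within the standard libraries, 0.61 within the deep ones and 1.46 without Low MB pig 5.

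LEP (ENSSSCG00000040464, chr18:20106867-20124071) encodes leptin, the satiety hormone secreted by adipocytes in proportion to fat stores. It was the lowest member per kilobase of exon, a place that depends on its exon length of 5007 bases over 6 transcripts. In CPM it had 1.59 to 5.34 CPM in the High MB pigs (median 2.08) and 0.050 to 3.80 CPM in the Low MB pigs (median 1.23). The lowest value, in Low MB pig 2, rests on 2 counts. All 6 High MB pigs were above the Low MB median and 4 Low MB pigs were below every High MB pig. The log2 fold change was 1.06 (standard error 0.60, 95% interval -0.22 to 2.34; exact permutation p = 0.0649), and the adjusted p was 0.634 in edgeR's quasi-likelihood test with Benjamini-Hochberg adjustment. Its log2 fold change was 2.04 within the standard libraries, 0.75 within the deep libraries and 1.65 without Low MB pig 5.

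**Figure D1:**
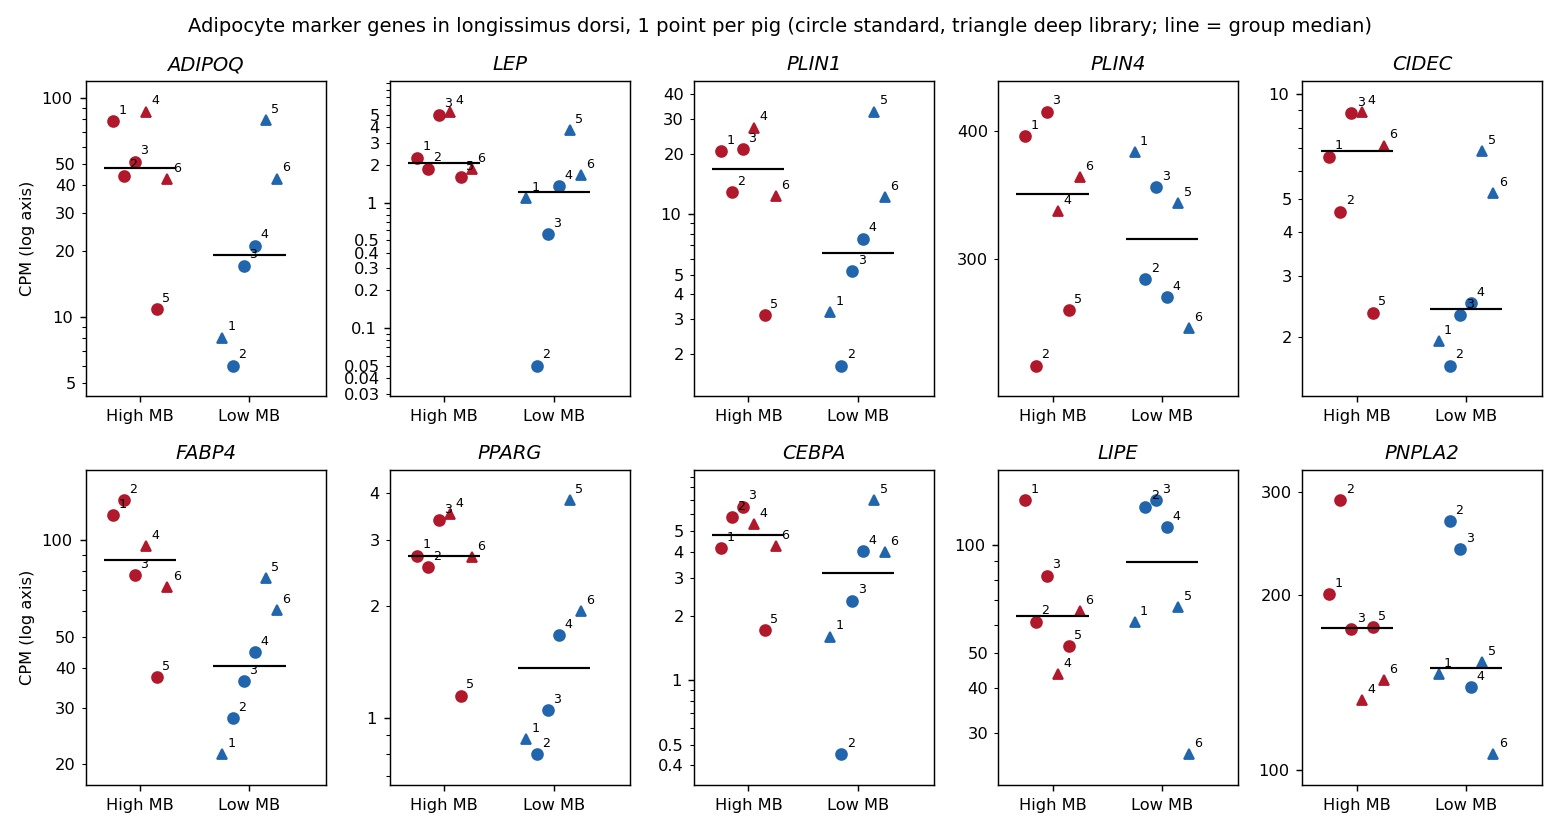
Level of the 10 members in each pig, in CPM on a log axis, with High MB pigs in red, Low MB pigs in blue, circles for standard and triangles for deep libraries, pig numbers beside the points and a line at the group median. High MB pig 5 lies with the low pigs for ADIPOQ, PLIN1, PPARG and CEBPA, Low MB pig 5 lies with the high ones, and the groups overlap for each gene.

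Among the droplet proteins, PLIN1 (ENSSSCG00000001844, chr7:55237517-55250797) encodes perilipin 1, the coat protein of the large adipocyte droplet that controls access of the lipases. It had 3.13 to 27.1 CPM in the High MB pigs (median 16.8) and 1.75 to 32.7 CPM in the Low MB pigs (median 6.37). The highest and the lowest pig of all were both of the Low MB group. The difference on the log2 scale was 0.63 (standard error 0.61; exact permutation p = 0.199), with an adjusted p of 0.793 in edgeR's quasi-likelihood test with Benjamini-Hochberg adjustment. It was 1.60 within the standard libraries and 0.32 within the deep ones, 1.44 without Low MB pig 5 and 0.42 without Low MB pig 2.

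CIDEC (ENSSSCG00000011557, chr13:66141836-66149801) encodes a protein that transfers lipid between touching droplets and so enlarges them. It had 2.35 to 8.92 CPM in the High MB pigs (median 6.86) and 1.65 to 6.84 CPM in the Low MB pigs (median 2.40). Of the High MB pigs 3 were above every Low MB pig, and of the Low MB pigs 3 were below every High MB pig. On the log2 scale, High MB minus Low MB came to 0.90 for CIDEC (standard error 0.38, 95% interval 0.08 to 1.72), with an unadjusted p of 0.0332 and an adjusted p of 0.566 in edgeR's quasi-likelihood test with Benjamini-Hochberg adjustment, and the exact permutation p was 0.0584. It was 1.38 within the standard libraries and 0.82 within the deep ones.

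PLIN4 (ENSSSCG00000013512, chr2:74318624-74331920), a perilipin that coats small nascent droplets, had the smallest ratio of the highest to the lowest pig among the members, 1.77. It was 236 to 418 CPM in the High MB pigs (median 347) and 257 to 382 CPM in the Low MB pigs (median 313), and the groups lay over each other. The log2 fold change was 0.09 (standard error 0.16, 95% interval -0.25 to 0.42; exact permutation p = 0.66). Its standard deviation of log2 CPM over the pigs was 0.27, near the median of 0.33 over all genes tested, while that of LEP (1.58) was above 99.5%, that of PLIN1 (1.35) above 98.8% and that of ADIPOQ (1.33) above 98.7% of these genes.

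FABP4 (ENSSSCG00000040681, chr4:55096400-55101209) carries fatty acids in the adipocyte cytoplasm and is also made by capillary endothelium and macrophages. It had 37.4 to 133 CPM in the High MB pigs (median 86.7) and 21.5 to 76.3 CPM in the Low MB pigs (median 40.6). Of the High MB pigs 4 were above every Low MB pig, which for no other member was so many. On the log2 scale, High MB minus Low MB came to 1.00 for FABP4 (standard error 0.32, 95% interval 0.31 to 1.69), with an unadjusted p of 0.00769 and an adjusted p of 0.563 in edgeR's quasi-likelihood test with Benjamini-Hochberg adjustment, and the exact permutation p was 0.0281. It was 1.35 within the standard libraries and 0.70 within the deep ones.

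Markers of the cells that also make FABP4 had log2 fold changes of the same sign. All 6 of the 6 endothelial markers tested had a positive log2 fold change (median 0.28), with a summed level of 135 to 185 CPM in the High MB pigs and 82.6 to 198 CPM in the Low MB pigs. All 6 of 6 macrophage markers were also positive (median 0.95), with sums of 34.3 to 109 CPM and 20.8 to 43.4 CPM. For fibroblasts and adipocyte progenitors it was 9 of 9 (median 0.55), with sums of 704 to 1220 CPM and 369 to 904 CPM, and for blood 3 of 3 (median 0.71), with 75.4 to 151 CPM and 41.9 to 89.0 CPM. Schwann cell markers were positive in 2 of 3 (median 0.05, sums of 22.8 to 39.6 and 24.8 to 34.99 CPM), satellite cell markers in 2 of 3 (median 0.01, sums of 12.7 to 36.6 and 13.9 to 33.03 CPM) and muscle fibre markers in 1 of 4 (median -0.10, sums of 33291 to 81633 and 58139 to 110578 CPM). An unadjusted p under 0.05 with a higher level in the High MB pigs was found for 5.33% of all genes, and for 4 of 6 macrophage, 4 of 9 fibroblast and progenitor, 2 of 6 endothelial, 2 of 3 blood and 1 of 4 muscle fibre markers, and for 0 of the Schwann and satellite cell markers. The shares of the 5 lists with such genes are larger than that of the members (2 of 10), and the difference was not tested. These counts used edgeR's p. By exact permutation, some of the macrophage and of the fibroblast and progenitor markers counted had a p of 0.0693 to 0.0758. That of CIDEC, a member counted, was 0.0584. No marker of these lists was at 0 in every pig, edgeR called 0 of them (the most abundant gene of 4 lists, COL3A1, PECAM1, CSF1R and HBB, had log2 fold changes of 0.64, 0.27, 0.60 and 0.78), and their part in the levels of the members was not tested.

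Of the lipases, LIPE (ENSSSCG00000003018, chr6:49543671-49560126), the hormone-sensitive lipase that cleaves diglycerides, had 43.7 to 133 CPM in the High MB pigs (median 63.3) and 26.2 to 133 CPM in the Low MB pigs (median 89.5). High MB pig 1 alone of its group was above the Low MB median. On the log2 scale, High MB minus Low MB came to -0.27 for LIPE (standard error 0.35, 95% interval -1.01 to 0.48; exact permutation p = 0.714), with -0.59 within the standard libraries and 0.12 within the deep ones. PNPLA2 (ENSSSCG00000012841, chr2:513065-517962), which encodes adipose triglyceride lipase, had 132 to 290 CPM in the High MB pigs (median 175) and 106 to 267 CPM in the Low MB pigs (median 150). Its groups overlapped throughout, and the log2 fold change was 0.09 (standard error 0.24, 95% interval -0.42 to 0.59; exact permutation p = 0.673). Its sign turned with the setting, at -0.03 within the standard libraries.

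PPARG (ENSSSCG00000011579, chr13:68301566-68433951), whose start region is printed above, had 1.15 to 3.53 CPM in the High MB pigs (median 2.71) and 0.800 to 3.83 CPM in the Low MB pigs (median 1.36). The highest pig was again Low MB pig 5. On the log2 scale, High MB minus Low MB came to 0.65 for PPARG (standard error 0.38, 95% interval -0.16 to 1.46; exact permutation p = 0.0909), with 1.07 within the standard libraries, 0.52 within the deep ones and 1.07 without that pig. CEBPA (ENSSSCG00000002866, chr6:43083200-43085884) had 1.71 to 6.50 CPM in the High MB pigs (median 4.81) and 0.450 to 6.97 CPM in the Low MB pigs (median 3.17). The Low MB pigs held both ends of its range, and the log2 fold change was 0.51 (standard error 0.47, 95% interval -0.49 to 1.52; exact permutation p = 0.232). Its log2 fold change was 1.00 within the standard libraries and 0.24 within the deep ones, 0.90 without Low MB pig 5 and 0.29 without Low MB pig 2.

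Of the 10 members, 0 passed both limits (adjusted p under 0.10, log2 fold change beyond 0.58 in either direction), and edgeR called 0% of the 13373 genes, with a smallest adjusted p of 0.563. DESeq2 with its defaults called 29 genes and 0 members. At an unadjusted p under 0.05, 2 members (CIDEC and FABP4) were higher in the High MB group, beside 5.33% of all genes higher, and 0 members were lower, beside 3.13% of all genes. The log2 fold change was positive for 9 of the 10 members, with a median of 0.64, against 46.9% positive and a median of -0.02 over all genes. Most members varied together across pigs, so these signs are not separate observations. The number of members at an unadjusted p under 0.05 was 5 with the depth class as a covariate, where 1338 of all genes tested had such a p in either direction, against 1132 without the covariate. It was 6 without Low MB pig 5 (1305 of all genes), 3 without High MB pig 5 (844 of all genes), 2 without High MB pig 2 or Low MB pig 6, and 1 without any other single pig (High MB pig 1, 3, 4 or 6, or Low MB pig 1, 2, 3 or 4). Over the 12 fits that each left out a pig, the count over all genes ran from 844 to 1454. With High MB pig 2 and Low MB pig 4 both left out, 1 member had such a p, beside 1113 of all genes, and 0 members were called.

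**Figure D2:**
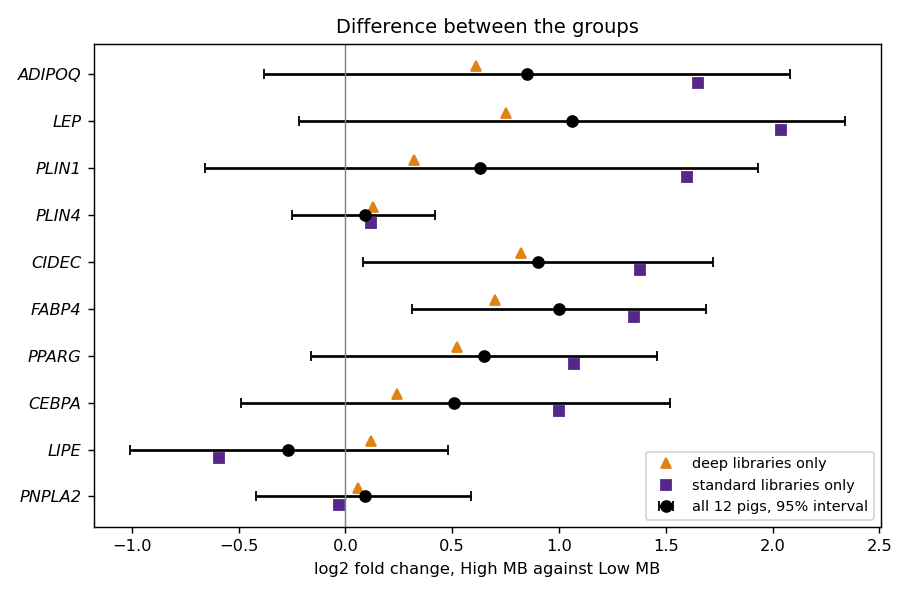
Log2 fold change of each member, High MB against Low MB, from edgeR, with its 95% interval over the 12 pigs (black), and the same within the deep (orange triangles) and standard libraries (purple squares). The intervals of CIDEC and FABP4 alone lie above 0, neither passed the adjustment over all genes, and LIPE and PNPLA2 change sign between the classes of library.

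The larger variation was between pigs within each group, and it was shared among members. The log2 CPM of each gene was correlated with that of ADIPOQ over the 12 pigs and compared with permutations of the pigs, with p-values adjusted over all 13372 other genes. Of the 9 other members 5 were called at an adjusted p under 0.10 with a positive r, beside 0.194% of all genes. PLIN1 had the highest Pearson r of all 13372 genes, 0.99 (Spearman rho 0.97, permutation p = 1e-05, the smallest that the permutations can give, adjusted p = 0.0334). Its r was 0.98 within the High MB pigs, 0.99 within the Low MB pigs, 0.99 within the standard libraries and 0.98 within the deep ones.

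PPARG had the fourth highest r, 0.96 (rho 0.96, permutation p = 1e-05, adjusted p = 0.0334), with 0.93 in the High MB and 0.96 in the Low MB pigs, 0.94 in the standard and 0.97 in the deep libraries. CIDEC followed with 0.94 (rho 0.88, permutation p = 2e-05, adjusted p = 0.0334), and its r was 0.89, 0.97, 0.92 and 0.97 in the same 4 subsets. For FABP4 the r was 0.91 (rho 0.87, permutation p = 6e-05, adjusted p = 0.0624), and 0.84, 0.96, 0.92 and 0.98 in the subsets. For these 4 genes r was thus at least 0.84 within each group and within each class of depth. CEBPA had an r of 0.89 (rho 0.87, permutation p = 2e-05, adjusted p = 0.0334), and 0.83, 0.91, 0.88 and 0.98 in the subsets. By Spearman's rho the adjusted permutation p was 0.0446 for PLIN1, 0.0267 for PPARG and 0.216 for CIDEC, FABP4 and CEBPA.

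LEP, the other hormone, missed the threshold with r (0.80, permutation p = 0.00029, adjusted p = 0.118) and passed it with rho (0.94, permutation p = 3e-05, adjusted p = 0.0501). Its r was 0.61 in the High MB pigs, 0.82 in the Low MB pigs, 0.80 in the standard and 0.87 in the deep libraries. The closest member to LEP was CEBPA by r (0.90) and PPARG by rho (0.96). The remaining members were not called with ADIPOQ: the r was 0.22 for PLIN4 (rho 0.15, permutation p = 0.483, adjusted p = 0.901), -0.25 for LIPE (rho -0.10, permutation p = 0.435, adjusted p = 0.876) and -0.29 for PNPLA2 (rho -0.26, permutation p = 0.362, adjusted p = 0.842). Within the High MB pigs, the Low MB pigs, the standard and the deep libraries, the r of PLIN4 was 0.52, -0.18, 0.46 and -0.37, and its sign thus turned between the groups and between the classes. In the same order it was 0.33, -0.48, -0.02 and -0.17 for LIPE, and -0.11, -0.57, -0.13 and -0.13 for PNPLA2. Between pairs of the 6 genes ADIPOQ, PLIN1, PPARG, CIDEC, FABP4 and CEBPA, r was 0.79 to 0.99 in the 15 pairs, with a median of 0.91.

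Without Low MB pigs 2 and 1, which had the ADIPOQ levels farthest from the median, r was 0.98 for PLIN1, 0.92 for PPARG, 0.91 for CIDEC, 0.84 for FABP4, 0.84 for CEBPA and 0.74 for LEP. With these 10 pigs, 0 members passed the adjustment over all genes, and the adjusted permutation p was 0.134 for PLIN1, 0.401 for PPARG and at least 0.915 for the others. The unadjusted permutation p of these 6 genes lay between 4e-05 and 0.0134.

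**Figure D3:**
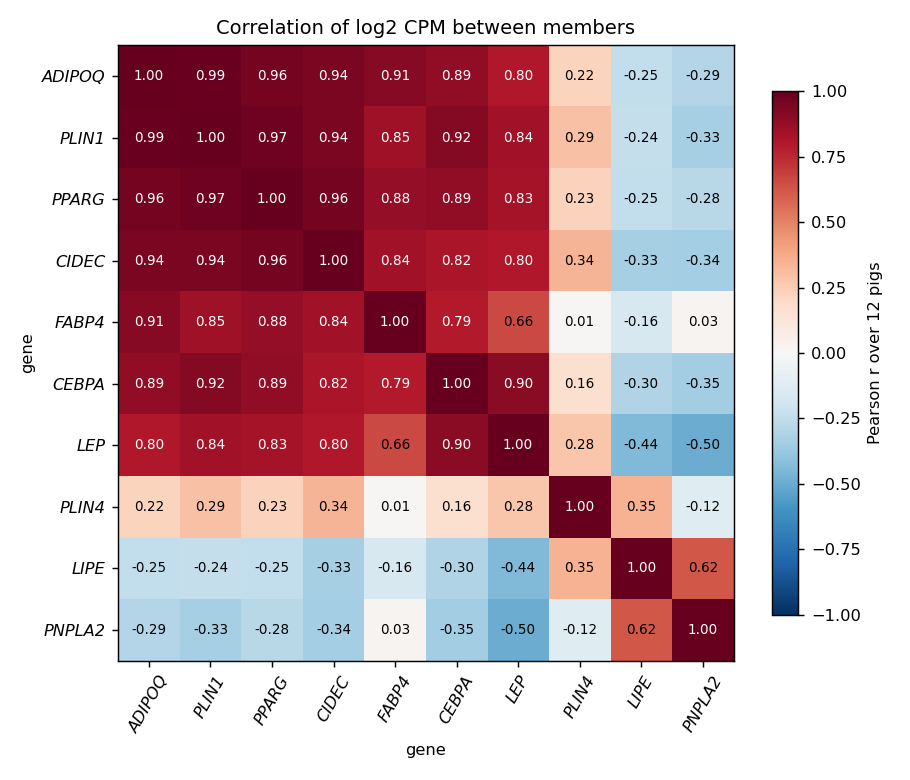
Pearson r of log2 CPM over the 12 pigs for each pair of members, from -1 (blue) to 1 (red). The 6 genes from ADIPOQ to CEBPA form a block with r of 0.79 to 0.99, LEP joins it in part, and PLIN4, LIPE and PNPLA2 stand outside.

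The pigs were also ordered on the block genes. These were chosen by their correlation with ADIPOQ in the same pigs, so a similar order among them is no separate observation. High MB pig 5 and Low MB pigs 1, 2 and 3 were among the lowest 5 pigs for 6 of the 6 block genes, and Low MB pig 4 for 5 of the 6. The widest gap in the order of ADIPOQ, 1.00 on the log2 scale, separated 4.41 in Low MB pig 4 from 5.41 in High MB pig 6. Low MB pig 5 was towards the other end, and in it PLIN1, PPARG and CEBPA were each the highest of all 12 pigs. It held place 2 for ADIPOQ, 4 for CIDEC and 5 for FABP4. High MB pig 4 was the highest for ADIPOQ and CIDEC. The order for the lipases was another, and Low MB pig 2, the lowest for ADIPOQ, was second for PNPLA2 and in the third place for LIPE. PNPLA2 was at 106 to 153 CPM in the deep libraries and 139 to 290 CPM in the standard ones. For LIPE these ranges were 26.2 to 67.1 CPM and 52.2 to 133 CPM. The part of library depth in the order of the lipases was not tested.

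LIPE and PNPLA2 were correlated with each other over the 12 pigs (r = 0.62, permutation p = 0.0327; rho 0.55, permutation p = 0.0661), a pair computed apart from the test over all genes and not adjusted. The r was 0.82 in the Low MB and 0.31 in the High MB pigs, 0.03 within the standard libraries, and 0.79 when pig 2 of each group was left out. The relation did not hold within the standard libraries, and r within the deep libraries alone was not computed. In the 5 deep libraries both lipases were lowest in Low MB pig 6 (LIPE 26.2 and PNPLA2 106 CPM). Both were highest there in Low MB pig 5 (67.1 and 153 CPM).

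The 10 genes outside the members with the highest r with ADIPOQ were all called. TRARG1, a regulator of the trafficking of the insulin-responsive glucose transporter in fat, had an r of 0.96 (adjusted permutation p = 0.0334), and MAL2, a membrane protein of vesicle transport, also 0.96 at a mean of 1 CPM. The glycolytic enzyme ALDOC had 0.95 and GYS2, the glycogen synthase known from liver, 0.94. PPP1R1B, an inhibitor of protein phosphatase 1, had 0.92, and SDR16C5, a retinol dehydrogenase, TSPO of the outer mitochondrial membrane and the cytochrome CYP2S1 had 0.91 each. ENSSSCG00000040337 and ENSSSCG00000037487, which had no symbol, had 0.93 and 0.91.

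Lists of related genes were read in the same way, against a median r of -0.02 over all genes. Other adipocyte markers had a positive r in 12 of 12 genes tested (median 0.60, 1 called, TRARG1), and lipogenic enzymes in 8 of 9 (median 0.65, 1 called). The called enzyme was ELOVL6, an elongase of fatty acids, with an r of 0.89 (adjusted permutation p = 0.0812), named after its value was seen. In triglyceride synthesis 2 of 10 were positive (median -0.10, from -0.72 to 0.83). The highest was DGAT2, the acyltransferase of the last step, at 0.83 without being called. Of the partners of the lipases and other droplet proteins 4 of 10 were positive (median -0.12), of lipolytic signalling 3 of 7 (median -0.06), of regulators of adipogenesis 10 of 19 (median 0.01), of hormone receptors 2 of 4 (median 0.07) and of fat uptake 2 of 6 (median -0.22), with 0 called in each.
The endothelial markers had a median r of 0.47, macrophage markers 0.37, fibroblast and progenitor markers 0.34, satellite cell markers 0.42, blood 0.28, muscle fibre 0.19 and Schwann cell markers 0.04, with 0 called in each. Their part in the correlations was not tested.

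**Figure D4:**
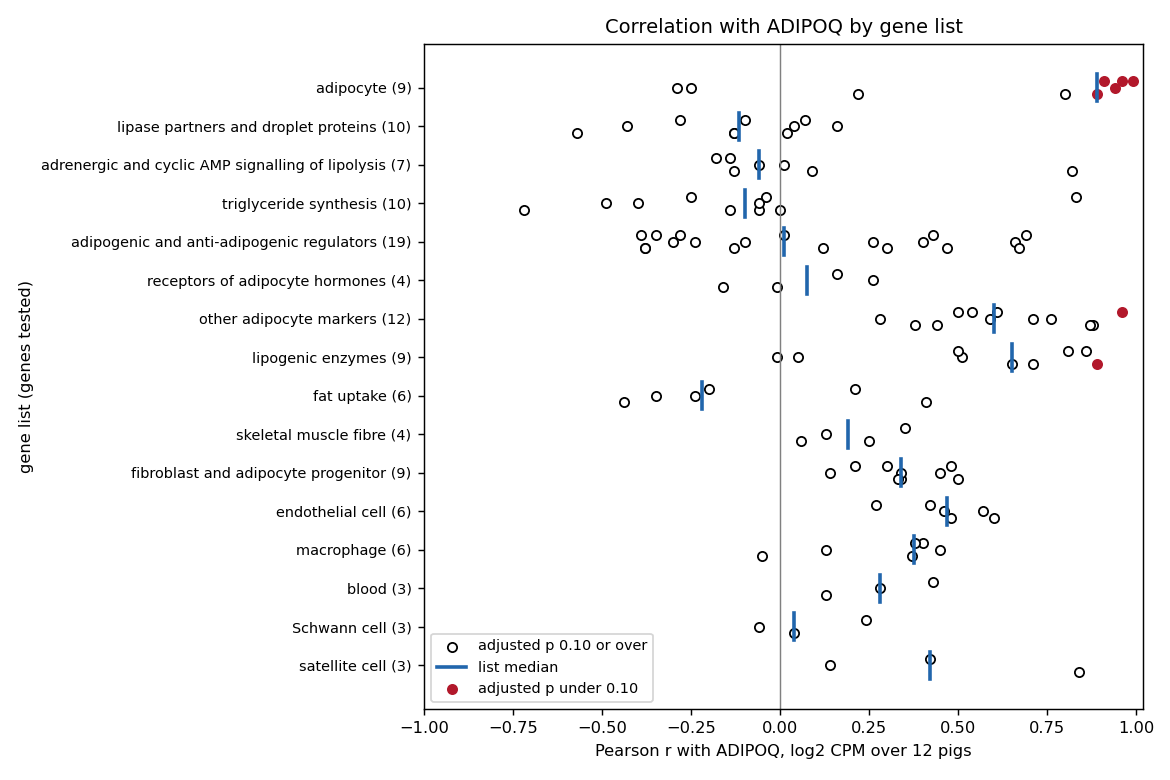
Pearson r with ADIPOQ of each gene tested in 16 lists, over 12 pigs, with filled points for an adjusted permutation p under 0.10 and a blue line at the median of the list. The medians of the adipocyte members (0.89), other adipocyte markers (0.60) and lipogenic enzymes (0.65) are the highest of the lists, with single genes of the members and enzymes at or below 0, and the medians of the lists of lipolysis and triglyceride synthesis lie between -0.12 and -0.06.

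Between the groups, the same lists held 0 called genes each. Among partners of the lipases and droplet proteins 5 of 10 were positive (median log2 fold change 0.04) and 0 had an unadjusted p under 0.05. PLIN2, the coat protein of droplets in many cells, had 154 ± 101 CPM in High MB pigs and 134 ± 48.8 CPM in Low MB pigs (SD, n = 6 each), PLIN5, which tethers droplets to mitochondria, a log2 fold change of 0.63 (standard error 0.35), and FITM2, which acts in droplet budding, -0.30 (0.16). In lipolytic signalling 3 of 7 were positive and 1 had such a p, PRKAR2B, a regulatory subunit of protein kinase A, with a log2 fold change of 0.72 (0.29). ADCY6, an adenylyl cyclase, had 0.37 (0.19) and PRKAR1A, another regulatory subunit, -0.22 (0.13).

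In triglyceride synthesis 3 of 10 were positive (median -0.06), with DGAT2 at 0.85 (standard error 0.52), GPAM, the acyltransferase of the initial step, at 0.31 (0.22) and GPD1, which supplies glycerol phosphate, at -0.09 (0.33). Of the regulators of adipogenesis 11 of 19 were positive (median 0.11) and 3 had an unadjusted p under 0.05, all higher, among them EBF1 at 0.54 (0.23) and ZNF423 at 0.41 (0.17), which mark the preadipocyte lineage. The other was WNT10B, a signal that holds back adipogenesis, at 1.14 (0.49), named after its value was seen. Its level was low, with 3 to 34 counts per pig and a mean of 0.312 CPM. RXRA, the partner of PPARG on DNA, was at -0.09 (0.15). Other adipocyte markers were positive in 12 of 12 (median 0.53), with CFD, the secreted protease adipsin, at 0.42 (0.17), TRARG1 at 1.09 (0.54) and CAVIN1, a coat protein of caveolae, at 0.03 (0.14).

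Lipogenic enzymes were positive in 7 of 9 (median 0.35), with the desaturase FADS2 at 0.62 (standard error 0.21), ELOVL5 at 0.64 (0.32) and the fatty acid synthase FASN at -0.13 (0.64). Of fat uptake 4 of 6 were positive (median 0.25), and 2 had an unadjusted p under 0.05. GPIHBP1, which holds lipoprotein lipase on capillary walls, was at 0.65 (0.17), VLDLR, a lipoprotein receptor, at -0.23 (0.10) and the acyl-CoA synthetase ACSL1 at 0.15 (0.21). Of the hormone receptors 1 of 4 was positive, the leptin receptor LEPR at 0.80 (0.48), with the adiponectin receptors ADIPOR1 at -0.12 (0.13) and CDH13 at -0.20 (0.12). The level of LEPR was low, with 6 to 56 counts per pig and a mean of 0.536 CPM.

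The levels of the members were also set against myoglobin content within each group, since the groups were selected as extremes and cannot be pooled. Over 20 relations (10 members in 2 groups of 6 pigs), Pearson r was between -0.37 for LIPE in the High MB pigs and 0.50 for PLIN4 and for LIPE in the Low MB pigs. The smallest exact permutation p of r was 0.29, and each adjusted p was 0.989 for r and 1 for rho. No relation was detectable with 6 pigs, and the coefficients moved widely when the 2 pigs farthest in myoglobin were left out, for PPARG in the High MB pigs from -0.27 to -0.99.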

How the data were processed

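LD RNA of 12 pigs was sequenced as paired reads of 1 library each. Per the labels and the study's methods, the authors trimmed the reads with Trim Galore, used HISAT2 for alignment to Sscrofa11.1 and HTSeq for counting, and deposited raw counts per gene, without normalization. The annotation release, strandedness and treatment of overlaps in counting are not given in the sources used here, so reads of a gene and an antisense partner cannot be told apart. The summary lines of the counting (56% to 57.2% of reads) were kept out, and the 12 tables by transcript were not used. Groups and numbers came from the labels.

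Genes were tested with edgeR 4.0.16 in R 4.3.3 (TMM, filterByExpr, estimateDisp, glmQLFit, glmQLFTest, no covariate) and called at a Benjamini-Hochberg adjusted p under 0.10 with a log2 fold change beyond 0.58 in either direction. DESeq2 1.42.0 was an alternative. The standard error was taken from the test statistic. log2 CPM used a prior count of 2. Single genes were compared by exact two-sided permutation over 924 regroupings of the pigs (smallest p 0.00216), and correlations by 100000 two-sided permutations, or exactly within subsets (numpy 2.4.6, scipy 1.17.1). The scripts were tested on simulated data. Identifiers were matched to symbols for 11354 of the tested genes. Loci and sequences are those of RefSeq on Sscrofa11.1, from the genome and its annotation, and the start region of 1 member is not reported here.

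The p-values measure the spread between pigs. Counting floors cover counting error only. The members and the gene lists were chosen with earlier results of these data known. Named genes were the members, from each list the gene of highest mean CPM and the 2 of lowest p, from each marker list the gene of highest mean CPM, and the 10 other genes of highest r with ADIPOQ. The marker genes named by this rule were, besides ACTA1, COL3A1, PECAM1, CSF1R, HBB, SOX10 and MYOD1. The alternatives were other size factors, other filters, robust estimation, depth class as covariate, the individual number as block, removal of the 10 most counted genes, other limits, each pig left out, and another prior count. Leaving out High MB pig 2 and Low MB pig 4 together was chosen after seeing the data.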

Additional observations from a re-analysis of the deposited data

Results flagged for a closer look

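In the High MB group, pig 5 stood apart from the other 5 pigs, as the lowest by Dixon's test, for 4 of the 10 members. Its log2 CPM was 3.45 for ADIPOQ, against 5.41 in the nearest pig, and 1.66 for PLIN1, against 3.63. For PPARG it was 0.25, against 1.36, and for CEBPA 0.81, against 2.06. The test was applied to 20 sets of 6 pigs (10 members in 2 groups), of which chance flags about 1 in 20, and the 4 genes vary together, so they are not separate observations. Without this pig, 3 members had an unadjusted p under 0.05 in edgeR's test in place of 2, and over all genes 844 in place of 1132.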

How the results depend on the processing

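In each edgeR alternative that held pigs of both depth classes, 0 genes and 0 members were called (calls were not counted within a class alone), and DESeq2 with its defaults called 29 genes and 0 members. The direction of the log2 fold change turned for PNPLA2, at -0.01 with the depth class as a covariate, -0.03 within the standard libraries, -0.12 without High MB pig 2 and Low MB pig 4, and -0.06 to 0.26 with each pig left out, and for LIPE, at 0.12 within the deep libraries. For the other 8 members it was positive in each setting in which they were fitted (LEP was removed by the filter of at least 10 counts in every pig). With each pig left out it was 0.64 to 1.46 for ADIPOQ, 0.81 to 1.65 for LEP, 0.42 to 1.44 for PLIN1, 0.77 to 1.23 for CIDEC, 0.86 to 1.22 for FABP4, 0.51 to 1.07 for PPARG and 0.29 to 0.90 for CEBPA, highest for these 7 genes without Low MB pig 5. PLIN4 ranged from 0.01 to 0.19 and LIPE from -0.53 to -0.10. Of the correlations with ADIPOQ, 5 members were called with CPM without TMM factors and with a prior count of 0.5, and 0 without the 2 pigs farthest from the median ADIPOQ level, where fewer pigs were tested. The individual numbers did not pair the pigs: same-numbered pigs deviated together with correlations of -0.21 to 0.14, and 0 of 12 pigs correlated best with the pig of their own number. With the number as a replicate block 0 genes and 0 members were called, and 957 genes had an unadjusted p under 0.05, against 1132 without it. With 2 counts of LEP in Low MB pig 2, depth limits its fold change.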
